A study of Mus musculus with 8 samples.

Results

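The genes that copy DNA were examined in 8 tumor libraries from mice. The set held 46 genes, chosen by name for their place in origin licensing, the replication fork, the sliding clamp and nucleotide synthesis, out of 49671 gene identifiers in the count table. All 8 libraries carried the genotype HprtCre; Ewsr1-loxP; Atf1-loxP, in which Cre recombinase, placed at the Hprt locus, acts on loxP sites in Ewsr1 and Atf1 so that the chromosome ends can be exchanged and an Ewsr1-Atf1 fusion formed. EWSR1-ATF1 is the fusion known from clear cell sarcoma of soft tissue in people. No drug was given, the tumors were frozen when the primary tumor made the animal ill, and total RNA was sequenced after removal of ribosomal RNA. There was no normal tissue or other control group. The libraries are called by their titles, 1, 2L, 2R, 3, 4a, 4b, 5 and 6, and the labels do not say what the numbers and letters mean, in which cells Cre was active, whether 2L and 2R or 4a and 4b came from 1 animal, or the age of the mice. No label states that any of them came from separate animals, so p-values measure only the spread between these libraries, which may be partly technical.

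DNA replication is prepared in G1 phase and carried out in S phase. The origin recognition complex (ORC), CDC6 and CDT1 load the ring of MCM2 to MCM7 onto origins, and geminin (Gmnn) holds CDT1 back so that each origin fires once per cycle. CDC45 and the GINS complex turn the loaded ring into the active helicase, primase and polymerase alpha lay down primers, polymerases delta and epsilon extend them, and PCNA, loaded by replication factor C, keeps the polymerases on the template. Ribonucleotide reductase and thymidylate synthase supply the nucleotides, and many genes of this set are textbook targets of the E2F transcription factors, of which E2f1 is a member of the set.

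To see which promoters carry sites of the kind E2F factors bind, they were searched for TTTCCCGC, TTTCGCGC, TTTGCCGC and TTTGGCGC on both strands. The window ran from 250 bases before to 50 bases after the RefSeq start (GRCm38.p6), and 38 of the 46 genes had one. At least 1 of these 8-base matches stood in 15 of the 38 (39.5%), against 548 of 16522 protein-coding genes (3.32%). The CCAAT box (CCAAT, both strands; the E2F-type strings do not contain it, though the ends of neighbouring matches can share a base) stood in 25 of the 38 (65.8%) against 42.1% of all genes, and the cell-cycle element TTTGAA (both strands), often met at genes of G2 and mitosis, in 5 (13.2%) against 17.6%. An E2F-type match together with CCAAT was present in 10 (26.3%) against 1.42%. These are matches of letters and do not show binding. Where the windows lie was checked against transcripts of the mm10 annotation: the transcribed end of 41 of the 48 windows of members was found in a transcript of the same gene. That of 1 window each of Mcm6, Mcm5, Lig1, Orc4, Rpa1, Chaf1a and Fen1 was not, so the starts of those windows are less certain. Lig1, Orc4 and Fen1 also had windows whose end was found, among them the Lig1 window that held its E2F-type match. The 5 stretches below lie upstream of the RefSeq start of their window. They belong to genes described later: the helicase subunits Mcm6 and Mcm5, the licensing factor Cdc6, the hemimethylated-DNA reader Uhrf1 and the polymerase subunit Pola1. Those of Cdc6 and Uhrf1 lie inside the gene as annotated in mm10, which begins at 98907801 and 56303321. The Uhrf1 match came from the window at chr17:56304063-56304362, not from its other window at chr17:56303087-56303386. The E2F-type matches are in capitals, and where 2 of them overlap on opposite strands the capitals run together.
Mcm6 (chr1:128359725-128359835, minus strand): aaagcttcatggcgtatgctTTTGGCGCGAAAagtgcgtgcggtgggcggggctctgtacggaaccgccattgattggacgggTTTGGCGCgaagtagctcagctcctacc
Mcm5 (chr8:75109336-75109387, plus strand): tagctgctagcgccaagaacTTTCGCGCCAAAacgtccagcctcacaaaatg
Cdc6 (chr11:98907993-98908040, plus strand): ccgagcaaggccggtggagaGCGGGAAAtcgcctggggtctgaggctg
Uhrf1 (chr17:56304108-56304155, plus strand): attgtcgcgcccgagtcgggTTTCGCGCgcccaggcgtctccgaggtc
Pola1 (chrX:93632266-93632313, minus strand): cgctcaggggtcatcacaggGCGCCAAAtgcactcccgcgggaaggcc
Mcm6 held 3 matches in its stretch, Mcm5 held 2, and the others held 1 each.

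Between 4817902 counts (library 3) and 19682149 counts (2L) were recorded per library, and the 46 genes took between 3584 counts (library 3) and 31275 counts (4a). Levels are given as CPM, counts scaled to a common library size with TMM factors (a trimmed mean that sets most genes equal), so 1 count was worth 0.533 CPM in library 3 and at most 0.156 CPM elsewhere. Library 3 stood apart: its TMM factor was 0.394 against 0.830 to 1.36 elsewhere, and 3 abundant noncoding RNAs took 39.9% of its counts against 0.551% to 14.3%. Scaling by total counts instead moved its median gene by -1.53 (log2), and the other libraries by -0.46 to 0.22. Results that rest on library 3 are therefore given with and without it, and relative to all genes. Of the markers of clear cell sarcoma lineage, Mitf stood at 30.3 to 130 CPM, Sox10 at 0 to 0.235 CPM and Pmel at 0 to 1.91 CPM. Dct, a melanin synthesis gene, ranged from 0 counts in library 6 to 27.4 CPM in 2L and 74.04 CPM in library 3, while Mlana and Tyr had 0 counts in all 8 libraries. Gene positions below are those of the mm10 annotation. In bulk tissue, fewer cells of a type and less RNA per cell cannot be told apart.

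All 46 genes were detected, and 45 passed the filter on low counts, which asks for about 0.920 CPM in every library. The exception was Orc1, the largest ORC subunit, with 4 counts in 2R. Mean levels ran from 2.39 ± 1.29 CPM for Orc1 to 114 ± 25.9 CPM for Dnmt1, the maintenance DNA methyltransferase (SD, n = 8). Per kilobase of exon, the median member ranked at percentile 42.8 among the 11505 genes kept. Rrm2 ranked highest at percentile 86.9, followed by Dnmt1 (82.4), Pcna (78.7), Gins4 (78.3) and Mcm6 (77.6). Cdc6, at percentile 4.14, and Mcm10, at 9.81, ranked lowest.

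The members did not peak evenly across the tumors. In library 3, 28 of the 45 had their highest CPM, where 29.6% of all genes did, and in 4a another 12 did (7.67% of all genes). The other 5 were Orc5 and Rpa1 in 4b (8.90%), Rpa2 in 2R (8.42%), Rpa3 in 5 (8.23%) and Orc3 in 6 (16.3%), and none peaked in 1 (8.19%) or 2L (12.7%). The lowest value fell in library 6 for 17 of the 45 (16.4% of all genes), in library 3 for 7 (31.2%) and in 2L for 7 (12.2%). The mean log2 CPM over the 45 was 4.85 in library 3, 4.36 in 4a, between 3.92 and 4.14 in 1, 2L, 2R, 4b and 5, and 3.86 in 6, while the median of all genes stayed between 4.58 and 4.66. Without library 3, 23 of 45 were highest in 4a (9.75% of 12658 genes), and 18 were lowest in 6 (18.4%) and 11 in 2L (18.7%). With total-count scaling, which lowers every gene of library 3 alike, 7 members (15.6%) were highest in library 3, against 3.75% of all genes, and 26 (57.8%) in 4a, against 17.5%. Under that scaling 24 members (53.3%) were lowest in library 3, against 74.9% of all genes. As a share of the counts of nuclear protein-coding genes, the 46 genes made up 0.315% in library 3, 0.194% in 4a, and 0.131% to 0.181% in the others. As a share of all counts, library 3 was instead the lowest, at 0.0744% against 0.0803% to 0.170% elsewhere.

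**Figure D1:**
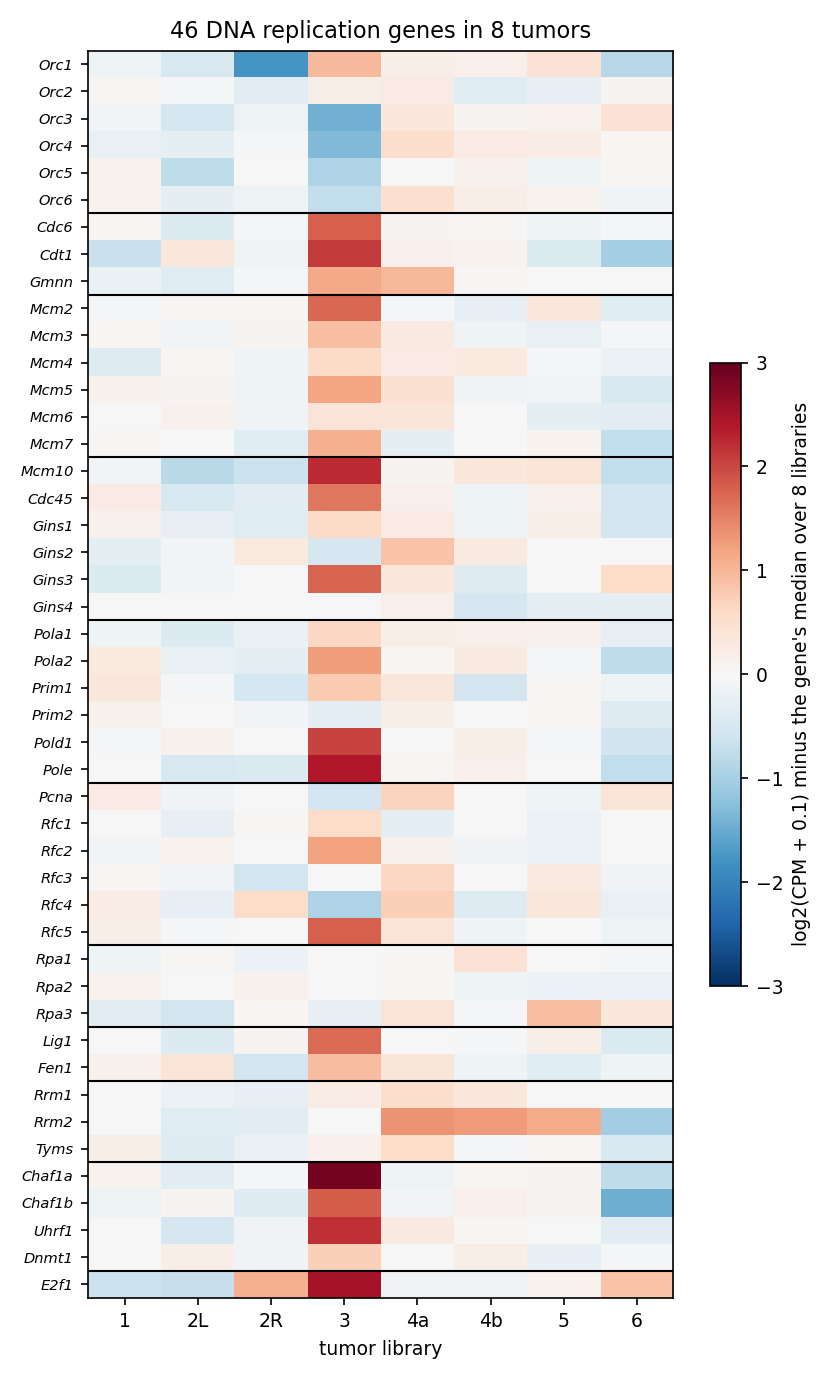
Log2 CPM (a small constant added) of each member in each of the 8 libraries, less the member's median over libraries, with members ordered by role. The column of library 3 is high for most licensing, helicase, polymerase and chromatin genes and low for Orc3, Orc4 and Orc5, and Rrm2 is high in 4a, 4b and 5.

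**Figure D2:**
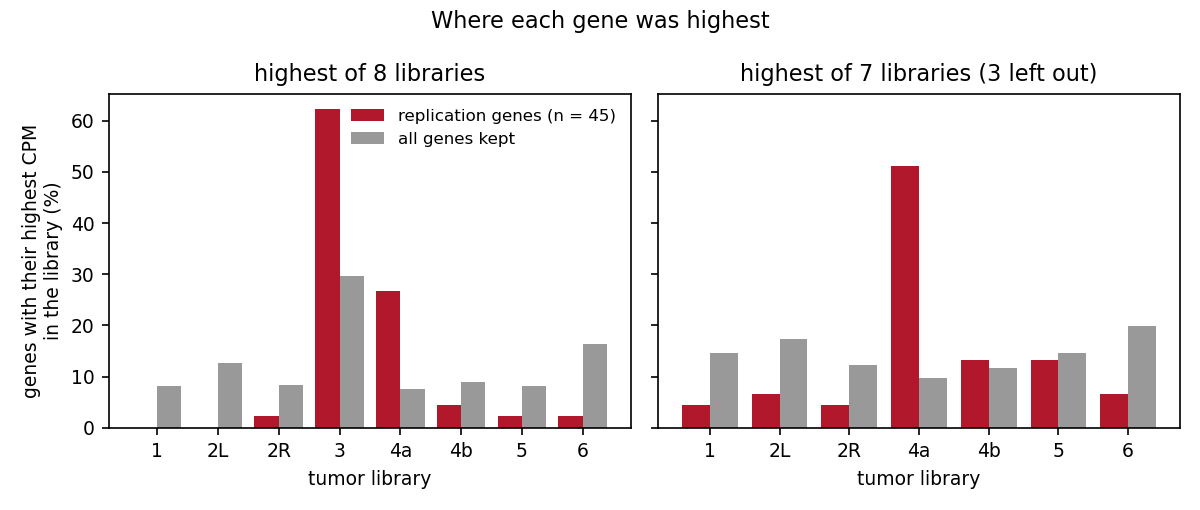
Share (%) of the 45 members and of all genes kept whose highest CPM fell in each library, with all 8 libraries on the left and with library 3 left out on the right. Of the members, 62.2% peaked in library 3, and without it 51.1% peaked in 4a.

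Among the 6 title numbers, edgeR's quasi-likelihood F-test called 0 of the 45 members and 0 of 11505 genes (0%) at an adjusted p under 0.05. At an unadjusted p under 0.05 it listed 17 members, against 2813 genes (24.5%). The smallest adjusted p of a member was 0.0974, for Pole and Chaf1a. DESeq2's likelihood ratio test, the other tool run, called 12 members against 20.7% of genes: Cdt1, Mcm2, Mcm10, Pold1, Pole, Rfc5, Lig1, Rrm2, Chaf1a, Chaf1b, Uhrf1 and E2f1. With library 3 left out, DESeq2 called 1 member, Rrm2, against 9.75% of 12167 genes. The edgeR fit rests on 2 residual degrees of freedom, those of the pairs 2L with 2R and 4a with 4b: without 2L it called 18 members (38.7% of genes), and without 2R 17 (39.3%). It called 7 with total-count scaling (37.3%) and 14 without the filter (20.6%).

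ORC marks the origins, and its subunits parted ways in library 3. Orc3 (ENSMUSG00000040044, chr4:34570796-34614944, minus strand) stood at 47.1, 34.6, 45, 18.1, 61.7, 52.4, 53.4 and 67.5 CPM in libraries 1, 2L, 2R, 3, 4a, 4b, 5 and 6. Library 3 lay below the other 7 libraries, and Orc4 was lowest there as well. Orc5 and Orc6 had their lowest values there too, but from 13 and 17 counts, with 95% Poisson intervals of 3.69 to 11.8 and 5.27 to 14.5 CPM, so their place was not settled at this depth. Orc1, by contrast, stood at 2.13, 1.69, 0.623, 4.79, 2.73, 2.64, 3.26 and 1.26 CPM in the same order. Its highest value was again in library 3, from 9 counts, with an exact 95% Poisson interval of 2.19 to 9.10 CPM that covers counting error only. Orc2 ranged from 25.6 to 39.4 CPM with its highest value in 4a, although 29.8% of its exon bases overlap Nif3l1 on the other strand and the strand used in counting is not given in the sources used here. Scaled per kilobase, Orc2 took 45.2% of the ORC total in library 3 against 20.2% to 32.1% elsewhere, and Orc3 took 13.9% against 21.7% to 31.5%.

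The 3 licensing genes were all highest in library 3. Cdt1 (ENSMUSG00000006585, chr8:122568015-122573554, plus strand), which brings the MCM ring to origins, stood at 5.50, 11.2, 8.25, 38.4, 9.90, 9.45, 6.63 and 4.39 CPM in libraries 1, 2L, 2R, 3, 4a, 4b, 5 and 6. Library 3 lay above the others by more than their whole range. Cdc6, the ATPase that works with ORC, stood at 4.26, 3.02, 3.89, 14.4, 4.35, 4.16, 3.69 and 3.98 CPM in the same order, close together outside library 3. Gmnn, the inhibitor of CDT1, stood at 4.79, 4.27, 5.45, 12.3, 11.1, 5.67, 5.58 and 5.53 CPM and was high in both 3 and 4a. Cdt1 had an adjusted p of 0.112 by edgeR and 0.000158 by DESeq2, and Cdc6 and Gmnn were called by neither.

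The 6 subunits of the MCM2-7 helicase ring were all highest in library 3, by unequal amounts. Mcm2 (ENSMUSG00000002870, chr6:88883474-88898780, minus strand) stood at 26.2, 28.1, 27.6, 88.4, 26.3, 22.7, 34.01 and 20.8 CPM in libraries 1, 2L, 2R, 3, 4a, 4b, 5 and 6. Mcm6 stood at 56.8, 62.4, 53.1, 75.6, 73.9, 58.0, 46.6 and 45.4 CPM, so that library 3 and 4a were close. Mcm3 stood at 24.9, 22.3, 25.2, 44.7, 28.4, 21.6, 20.4 and 22.6 CPM, with library 3 apart. Scaled per kilobase, the ring's total was divided as 26.7 ± 3.35% Mcm6, 23.6 ± 3.15% Mcm4, 14.6 ± 1.62% Mcm3, 12.9 ± 2.32% Mcm7, 12.5 ± 1.49% Mcm5 and 9.65 ± 2.78% Mcm2 (SD, n = 8). Mcm6 had the largest share in 1, 2L, 2R, 3, 4a and 6, and Mcm4 in 4b (28.5% against 27.4%) and 5 (24.1% against 23.8%). Mcm2 took 15.6% in library 3 and at most 11.7% elsewhere, and Mcm6 took 19.9% in library 3 and at least 23.8% elsewhere.

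**Figure D3:**
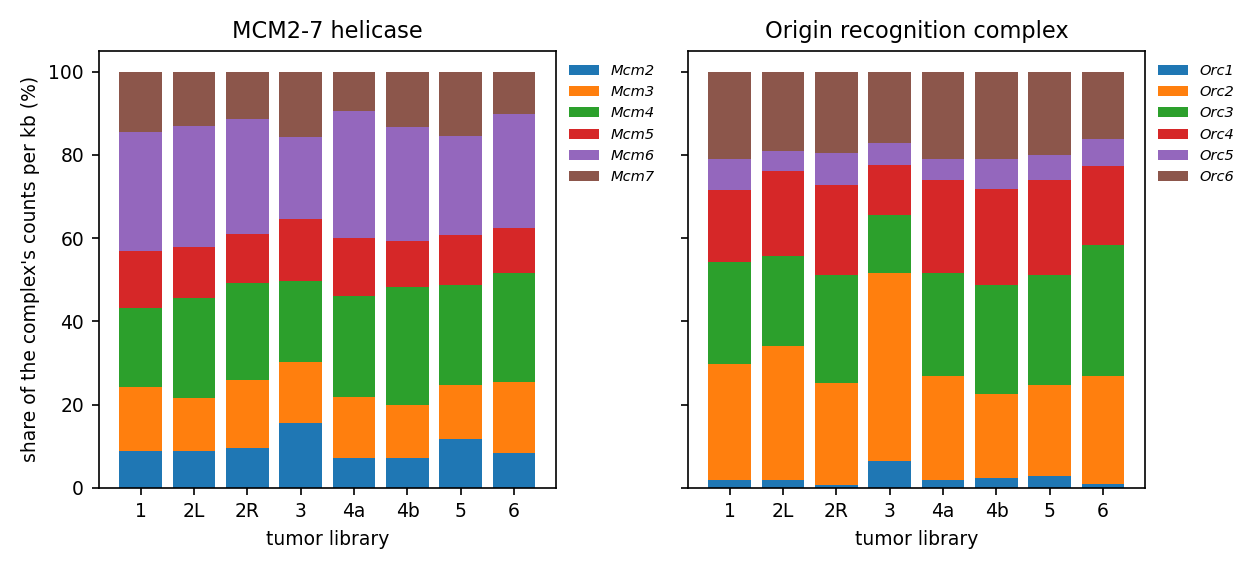
Stacked bars of the share (%) of each subunit in the summed length-scaled counts of MCM2-7 (left) and of the origin recognition complex (right), 1 bar per library. In library 3 the Mcm2 share is 15.6% and the Orc2 share 45.2%, both above the other 7 libraries.

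Of the 6 genes that activate the helicase, 4 were highest in library 3 (Gins1 from 8 counts). Mcm10, which is needed to start unwinding, stood at 7.90, 4.70, 5.29, 39.9, 8.82, 10.4, 10.95 and 5.0 CPM in libraries 1, 2L, 2R, 3, 4a, 4b, 5 and 6. Cdc45 was at 21.3 CPM in library 3 and between 4.80 and 8.35 CPM elsewhere. Gins4, a subunit of the GINS complex, showed no such pattern, at 19.1, 19.01, 19, 18.6, 20.9, 13.3, 15.5 and 15.6 CPM (mean 17.6 ± 2.54, SD, n = 8). Per kilobase it took 61.7% to 76.8% of the GINS total, the lowest share being that of library 3. Gins2 was highest in 4a (11.1 CPM). Its value in library 3 (4.26 CPM) rests on 8 counts, with a 95% Poisson interval of 1.84 to 8.396 CPM that takes in 6 of the other 7 libraries, and 67.3% of its exon bases overlap Gse1 on the other strand.

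Polymerase genes differed in library 3, also between subunits of the same enzyme. Pole (ENSMUSG00000007080, chr5:110286306-110337474, plus strand), the catalytic subunit of the leading-strand polymerase epsilon, stood at 26.0, 18.5, 19.3, 136.9, 26.9, 28.6, 25.9 and 15.5 CPM in libraries 1, 2L, 2R, 3, 4a, 4b, 5 and 6. Pold1, the catalytic subunit of polymerase delta, was at 68.7 CPM in library 3 and between 11.1 and 19.0 CPM in the others. For both, library 3 lay far above the range of the other 7. Pola1, of the priming polymerase alpha, stood at 34.5, 28.3, 33.01, 58.1, 42.3, 41.9, 41.2 and 31.9 CPM. Its library 3 was nearer to the others. Pola2, of the same enzyme, was at 31.4 CPM in library 3 and between 7.68 and 16.2 CPM elsewhere. Prim2, the large primase subunit, varied little (15.1 ± 1.94 CPM, SD, n = 8) and was highest in 4a. Of further subunits outside the set, Pold2, Pold3 and Pole4 were highest in library 3 and Pole2 in 4a. Pole3 and Pold4 were lowest in library 3, from 30 and 6 counts.

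The sliding clamp did not follow Pole, Pold1, Pola1 or Pola2 in library 3. Pcna (ENSMUSG00000027342, chr2:132249162-132253314, minus strand) stood at 35.2, 27.4, 29.3, 19.7, 46.8, 29.8, 27.0 and 39.3 CPM in libraries 1, 2L, 2R, 3, 4a, 4b, 5 and 6. It was highest in 4a and lowest in library 3, from 37 counts with a 95% Poisson interval of 13.9 to 27.2 CPM that reaches the value of library 5; its pseudogene Pcna-ps2 was counted separately at a mean of 3.22 CPM, and how reads of the 2 copies were split is not given in the sources used here. Rfc1, the large subunit of the clamp loader, stood at 57.2, 48.8, 58.9, 84.2, 47.9, 58.4, 51.2 and 58.7 CPM. Rfc5, a small subunit, stood at 11.99, 10.3, 10.6, 37.3, 14.04, 9.75, 10.7 and 9.55 CPM. Both were highest in library 3, whereas Rfc4, another small subunit, was lowest there at 3.20 CPM against 4.69 to 10.1 CPM. The Rfc4 value rests on 6 counts, with a 95% Poisson interval of 1.17 to 6.96 CPM, so its place below the others is not settled at this depth. Rfc3 was highest in 4a, at 19.4 CPM.

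Replication protein A, which coats single-stranded DNA, was the steadiest group. Rpa2 ranged only from 10.3 to 12.6 CPM, and its SD of 0.11 (log2) ranked at percentile 0.356 among all genes kept. Rpa1 stood at 53.6, 60.0, 52.2, 58.1, 60.3, 79.3, 59.6 and 57.2 CPM in libraries 1, 2L, 2R, 3, 4a, 4b, 5 and 6, with 4b above the rest. Rpa3, the smallest subunit, stood at 4.97, 4.27, 6.54, 5.33, 8.28, 6.12, 11.9 and 7.97 CPM, highest in 5. Its SD of 0.46 (log2) ranked at percentile 43.5. None of the 3 had its extreme value in library 3.

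Both genes that finish lagging-strand fragments were highest in library 3. Lig1, the ligase that seals them, stood at 22.7, 17.0, 23.8, 73.5, 22.4, 21.7, 25.7 and 16.7 CPM in libraries 1, 2L, 2R, 3, 4a, 4b, 5 and 6. Fen1, the flap nuclease, was at 22.9 CPM in library 3, had a median of 12.0 and was lowest in 2R (7.94 CPM). Library 3 lay apart for Lig1 and closer to 2L (15.7 CPM) for Fen1. The antisense gene Gm10143 covers 78.8% of Fen1 exon bases, so Fen1 is uncertain without the strand.

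The nucleotide supply genes peaked in 4a, not in library 3. Rrm2 (ENSMUSG00000020649, chr12:24708241-24714146, plus strand), the small subunit of ribonucleotide reductase, made in S phase, stood at 39.0, 30.0, 31.1, 38.4, 98.1, 94.5, 84.1 and 18.7 CPM in libraries 1, 2L, 2R, 3, 4a, 4b, 5 and 6. Libraries 4a, 4b and 5 were high, library 6 was lowest, and the remaining 4 lay together between them. The edgeR adjusted p was 0.102 and the DESeq2 adjusted p 4.41e-05; without library 3 they were 0.208 and 7.93e-06. The edgeR adjusted p was 0.000324 with total-count scaling, 0.000525 without 2L, 0.00209 without 2R and 1.97e-06 without the filter. Rrm1, the large subunit, stood at 62.4, 55.1, 52.8, 73.0, 90.4, 79.3, 62.3 and 62.1 CPM. Per kilobase, the ratio of Rrm2 to Rrm1 was 4.31 in 4a, 4.73 in 4b and 5.36 in 5, between 2.09 and 2.48 in 1, 2L, 2R and 3, and 1.19 in 6. Tyms, thymidylate synthase, ranged from 11.2 CPM in 6 to 22.6 CPM in 4a.

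**Figure D4:**
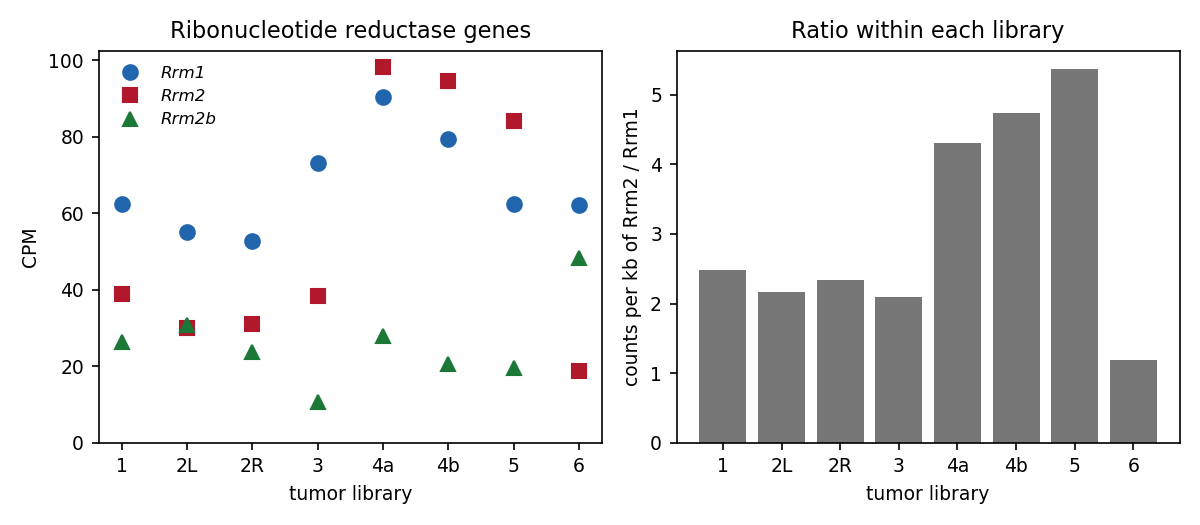
CPM of Rrm1, Rrm2 and Rrm2b, 1 point per library (left), and bars of the length-scaled ratio of Rrm2 to Rrm1 (right). Rrm2 stands at 84.1 to 98.1 CPM in 4a, 4b and 5 and at 18.7 CPM in 6, where Rrm2b is highest at 48.4 CPM.

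Markers of other cell types also differed between these libraries. The 6 macrophage markers, none at 0, summed to 3259 CPM in library 6 and to 761 to 1397 CPM in 4a, 4b and 5. In 1, 2L, 2R and 3, where Rrm2 was 30.0 to 39.0 CPM, they summed to 824, 1371, 1015 and 223 CPM. The part of macrophages in the Rrm2 values was not tested. The 6 red cell genes summed to 12556 CPM in 5, of which the globin Hbb-bs, also carried by mature red cells, made up 11794 CPM, and to 44.6 CPM in 4a and 37.3 CPM in 4b. Klf1, a regulator of red cell precursors, had 0 counts in 4b and 5, and the part of red cells in the Rrm2 values was not tested. The 6 fibroblast and matrix markers summed to 15684, 19866 and 10917 CPM in 4a, 4b and 5. In 2R, where Rrm2 was 31.1 CPM, they summed to 18342 CPM, of which Col1a2 made up 13483 CPM. Col1a1 stood at 4804, 7314 and 3741 CPM in 4a, 4b and 5 and at most at 2598 CPM elsewhere. Col3a1 stood at 4159, 5071 and 3027 CPM there and at most at 1968 CPM elsewhere. Col1a2 and Pdgfra were highest in 2R, Dcn in 2L and Lum in 1. The part of fibroblasts and matrix in the Rrm2 values was not tested.

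The 4 chromatin-copying genes were all highest in library 3. Chaf1a (ENSMUSG00000002835, chr17:56040439-56072289, plus strand), the large subunit of the histone chaperone CAF-1, stood at 14.7, 10.97, 13.2, 100.7, 12.4, 14.2, 14.5 and 8.01 CPM in libraries 1, 2L, 2R, 3, 4a, 4b, 5 and 6. Its SD of 1.10 (log2) was the largest of the 45, and 52.5% of its exon bases overlap Ubxn6 on the other strand. Chaf1b, the middle subunit, was at 35.2 CPM in library 3 and between 3.496 and 11.03 CPM elsewhere. Uhrf1, which brings DNMT1 to newly copied DNA, stood at 19.4, 13.8, 18.4, 90.0, 23.7, 20.1, 19.9 and 15.7 CPM. Dnmt1 stood at 106, 122, 97.6, 173, 105, 119, 89.7 and 103 CPM. Library 3 was highest for both, with a smaller distance for Dnmt1.

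E2f1 (ENSMUSG00000027490, chr2:154559407-154569892, minus strand) stood at 4.62, 4.51, 15.4, 42.1, 6.75, 6.80, 7.90 and 13.4 CPM in libraries 1, 2L, 2R, 3, 4a, 4b, 5 and 6. It was highest in library 3, then in 2R, then in 6, the library in which 17 members were lowest. Relative to 2R, 2L stood at -1.74 (log2). Mki67, a marker of cycling cells outside the set, stood at 131, 118, 147, 396, 170, 148, 134 and 105 CPM. It was highest in 3 and 4a, the libraries in which most members peaked, whereas E2f1 was at 6.75 CPM in 4a.

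Relative to the median of the other 7 libraries, the median member of library 3 was 0.75 (log2) higher, while the median of all genes was -0.05. At least 2-fold above were 20 of the 45 (18.6% of genes), and at least 2-fold below were 3 (20.1%), namely Orc3, Orc4 and Rfc4. The deviation followed base composition. Across the 45 members, Spearman's rho with the GC content of the longest transcript was 0.66 (a description over genes of the same libraries), against 0.31 over all genes. The 15 members of lowest GC (34.2% to 46.01%) had a median deviation of -0.27, with 3 highest and 6 lowest in library 3, and the 15 of highest GC (51.4% to 61.0%) had 1.71, with 13 highest and 1 lowest. After subtracting the median of genes of like GC, the median of the members was 0.86 and 35 of the 45 were above 0, as were 49.96% of all genes by construction.

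**Figure D5:**
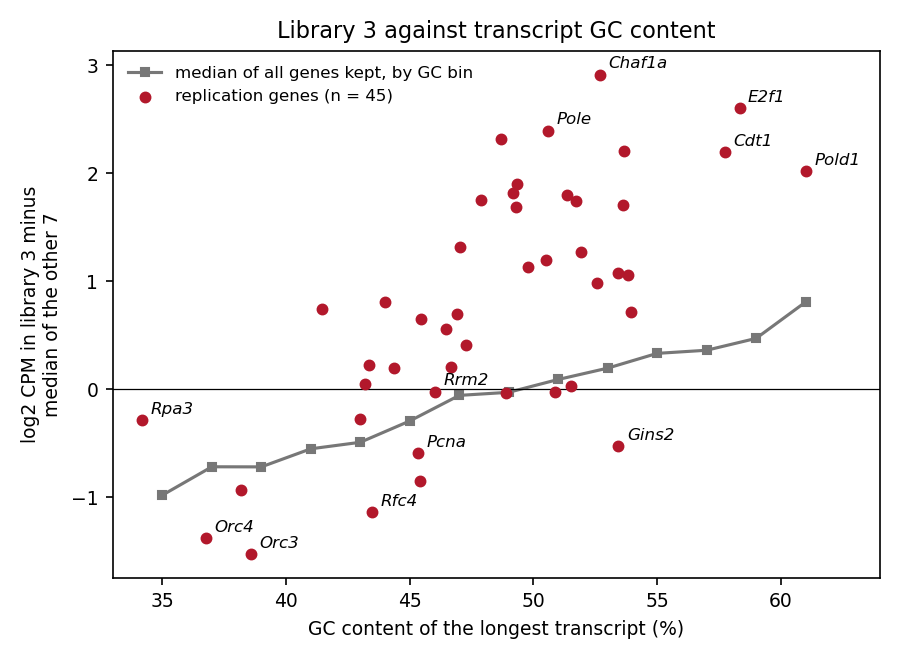
Log2 CPM of each member in library 3 less the median of the other 7 libraries, against the GC content (%) of its longest transcript; the line joins the medians of all genes kept in bins of GC. Members of high GC such as Cdt1, E2f1, Pold1 and Chaf1a lie above 2, above the line, and Orc3 and Orc4, of low GC, lie below -1 and below the line.

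The same comparison for 4a gave a median of 0.29 over the members, with 35 of 45 above 0, and 0.23 with 38 of 45 above 0 after the adjustment for GC. For library 6 it gave -0.25 with 9 of 45 above 0, and -0.26 with 9 of 45 after the adjustment. Markers of other cells moved in library 3 too: the macrophage markers summed to 223 CPM there against 761 to 3259 CPM, and the fibroblast markers to 1329 CPM against 3617 to 19866 CPM. The 6 skeletal muscle markers summed to 6507 CPM in library 3, 19801 CPM in 2L and at most 115 CPM elsewhere. The 5 keratinocyte markers summed to 301 CPM in library 3 and 1.22 to 854 CPM elsewhere, and they did not move together. Krt5 was at 193 CPM in library 3 and at most at 1.33 CPM elsewhere, whereas Krt14, Dsg3 and Dsp were higher in 2L and 5 than in library 3. The part of these other cells in the values of library 3 was not tested. Promoters with an E2F-type match belonged to 14 of the 45 members, of which 12 were highest in library 3 with a median deviation of 1.17 and a median GC of 52.2%; for the 23 with a promoter and no match, these were 11, 0.23 and 46.7%. GC content thus differed along with the match.

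The libraries that share a title number were compared gene by gene, without replicates. Between 2L and 2R the median difference over the members was -0.06 (log2), and 1 member, E2f1, was at least 2-fold lower in 2L (8.33% of genes), with none at least 2-fold higher (9.03%). Fen1 had the largest positive difference, 0.97. The SD over members was 0.43 against 0.91 over all genes. Between 4a and 4b the median was 0.23, with 32 of 45 members higher in 4a, as were 48.7% of all genes. Rfc4 was 1.09 higher in 4a, the only member at least 2-fold above (2.53% of genes), and none was 2-fold below (1.92%); Rpa1, at -0.39, was the lowest.

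Over all 8 libraries, the median SD of a member's log2 CPM was 0.48, against 0.51 for all genes, and 21 of 45 lay above the median of all genes. Without library 3 the medians were 0.30 and 0.39. Among the 7 other libraries, 32 of the 45 members (71.1%) spanned less than 2-fold from lowest to highest, against 43.9% of all genes.

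Pairs of members known to work together were compared over the 6 title numbers, averaging libraries that share one, with exact two-sided permutation tests of which the smallest possible p is 0.00139. None of the 6 relations passed after Benjamini-Hochberg adjustment. Cdt1 with Gmnn gave r = 0.87 (exact permutation p = 0.0458, adjusted 0.119) and rho = 0.71 (p = 0.136, adjusted 0.29), and r = 0.50 without 3 and 6. Uhrf1 with Dnmt1 gave r = 0.92 (exact permutation p = 0.0819, adjusted 0.123) and rho = 0.60 (p = 0.242, adjusted 0.29), and r = -0.12 without 3 and 6, so that r rested on those libraries. Pcna with Mki67 gave r = -0.82 (exact permutation p = 0.0597, adjusted 0.119) and rho = -0.66 (p = 0.175, adjusted 0.29), and r = 0.62 without 3 and 6. E2f1 with Mcm3 gave r = 0.81 (exact permutation p = 0.132, adjusted 0.158) and rho = 0.03 (p = 1, adjusted 1), and r = -0.21 without 3 and 1. Orc1 with Cdc6 gave r = 0.70 (exact permutation p = 0.0583, adjusted 0.119) and rho = 0.60 (p = 0.242, adjusted 0.29), and r = -0.24 without 2 and 3. Rrm1 with Rrm2 gave r = 0.57 (exact permutation p = 0.215, adjusted 0.215) and rho = 0.71 (p = 0.136, adjusted 0.29), and r = 0.22 without 4 and 3. Library 3 was among the pair left out each time.

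A wider list of 61 replication genes outside the set covered origin firing, further polymerase and loader subunits, fork protection, fragment maturation, nucleotide metabolism, chromatin assembly, the E2F and RB families and S-phase kinases. All 61 passed the filter, edgeR called 0 of them (22, or 36.1%, at an unadjusted p under 0.05, against 24.5% of all genes) and DESeq2 called 18 (29.5%, against 20.7%). With library 3 left out, edgeR called 0 (2 at an unadjusted p under 0.05) and DESeq2 called 1, E2f2 (9.75% of all genes). Their highest value fell in library 3 for 40 (29.6% of all genes) and their lowest there for 9 (31.2%). Among the 7 other libraries 17 were highest in 4a (9.75%) and 23 lowest in 6 (18.4%). The most abundant were the chromatin factor Rbbp4 (144 ± 31.1 CPM), topoisomerase Top2a (131 ± 30.5 CPM) and topoisomerase Top1 (80.8 ± 10.4 CPM; SD, n = 8). The most variable were E2f2, an activating E2F factor at 44.7 CPM in library 3, 16.01 CPM in 5 and 2.48 to 7.80 CPM elsewhere, the origin-firing factor Ticrr at 38.9 CPM in library 3 and 2.15 to 6.46 CPM elsewhere, and the helicase Recql4 at 25.03 CPM in library 3 and 1.38 to 3.29 CPM elsewhere. None of the 61 was at 0 in all libraries.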

How the data were processed

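The authors deposited a table of raw counts for 49671 Ensembl genes in 8 libraries. The build mm10 and the tools STAR 2.7.5a, RSEM, featureCounts and cutadapt are named per the submitters' processing notes; which of them produced these counts, the annotation and the strand setting are not given in the sources used here. Symbols came from a mouse annotation of the same build (99.5% of ids matched). Genes were kept by edgeR's filterByExpr (11505), scaled by TMM and tested among the 6 title numbers with edgeR 4.0.16 (quasi-likelihood F-test, Benjamini-Hochberg adjustment) in R 4.3.3; log2 CPM used a prior count of 2. DESeq2 1.42.0 was an alternative. Lengths are merged exons. On simulated counts of 11453 genes, in which 50 genes per fold size differed in 1 number, edgeR recovered 2 of 50 at 2-fold, 26 at 4-fold and all 50 at 8-fold. In the data, the same test did not call Chaf1a, at 100.7 CPM in library 3 and 8.01 to 14.7 CPM elsewhere. The simulated recovery is therefore no measure of which differences the test could find here. The members, lists and tests were chosen with earlier results of these data known. Values in every library are given for the member of highest mean and of largest SD in each of 11 roles and for the genes of each relation; other members named were chosen after their values were seen. The GC adjustment, the DESeq2 fit and the counts of highest, lowest and span without library 3 were added after seeing the data.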

Additional observations from a re-analysis of the deposited data

Results flagged for a closer look

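A value was flagged if its highest library lay farther from the next than 0.526 of the range, Dixon's 95% critical value. Among 77 values checked over the 8 libraries, 29 were flagged. Of these, 26 were in library 3, where 29.6% of all genes had their highest value. A rate of about 1 in 20 holds only for independent normal values. These values share the same 8 libraries, so 1 library can flag many together, and the check was not run over all genes. In CPM, library 3 stood out among licensing and helicase genes for Cdc6 (14.4), Cdt1 (38.4), Mcm2 (88.4), Mcm3 (44.7), Mcm5 (48.5), Mcm7 (56.5), Mcm10 (39.9), Cdc45 (21.3) and Gins3 (12.8). Among polymerase, clamp loader and ligase genes it stood out for Pola1 (58.1), Pola2 (31.4), Pold1 (68.7), Pole (136.9), Rfc1 (84.2), Rfc2 (51.1), Rfc5 (37.3) and Lig1 (73.5). Among chromatin genes and regulators it stood out for Chaf1a (100.7), Chaf1b (35.2), Uhrf1 (90.0), Dnmt1 (173) and E2f1 (42.1), as for Mki67 (396). The shares of a complex stood out there for Orc1 with 6.44% of ORC, Gins3 with 21.1% of GINS and Rfc5 with 22.4% of RFC. The 3 exceptions were Gins2 in 4a (11.1 CPM), Rpa1 in 4b (79.3 CPM) and the length-scaled ratio of Rrm2b to Rrm2 in library 6 (0.787, next highest 0.310).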

How the results depend on the processing

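Total-count scaling, the absence of a filter and leaving out 2L or 2R moved many counts of calls. In edgeR, genes called went from 0 to 4296 with total counts and 6260 without a filter, and to 2383 by DESeq2 (1186 with library 3 left out, chosen after seeing the data); leaving out 1 library gave 0 to 4548. Members called were 7, 14, 12 and 1 in the same order, and 0 to 18 leaving out 1 library. With total counts the median log2 difference of 2L and 2R became 0.60 and that of library 3 to the others -0.82, members highest in library 3 numbered 7 and in 4a 26 (12 to 23 leaving out 1 library), members at least 2-fold apart numbered 7 for 2L and 2R (3 without a filter, 2 at a mean CPM of at least 1) and 3 for 4a and 4b (2 without a filter), and r became -0.25 for E2f1 with Mcm3, 0.032 for Pcna with Mki67 and -0.47 for Uhrf1 with Dnmt1. Total-count scaling moved every gene of 2L by 0.21 and every gene of 2R by -0.46 (log2). The share of all genes at least 2-fold apart under these settings is not given here. These 2-fold counts therefore say nothing particular to the members. Without length scaling, Mcm2, Mcm3 and Mcm4 took 15.3%, 12.5% and 19.4% of MCM2-7. Counts in library 3 are few (1 count is 0.533 CPM), which limits Rfc4, Gins1, Gins2 and Orc1 (6, 8, 8 and 9 counts there). The cause of these shifts was not tested. No paired analysis was possible because all libraries belong to 1 group.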

Other observations

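Some ratios of paired members, per kilobase, differed between tumors. Cdt1 to its inhibitor Gmnn was 1.46 in library 3 and 1.22 in 2L, and between 0.371 and 0.778 in the other 6. Rrm2b, the p53-inducible small subunit of ribonucleotide reductase and not a member of the set, stood at 48.4 CPM in library 6 and at 10.7 CPM in library 3, and its ratio to Rrm2 was 0.787 in 6, 0.205 to 0.310 in 1, 2L and 2R, and 0.0665 to 0.0861 in 3, 4a, 4b and 5. E2f1 to Mcm3 was 1.12 in library 3, 0.727 in 2R and 0.706 in 6, and between 0.221 and 0.460 in the other 5. Chaf1a to Chaf1b was highest in 3 (1.51) and 6 (1.21), and lay between 0.559 and 0.936 elsewhere.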
